A study of Mus musculus with 2 samples.

Results

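The phagocyte NADPH oxidase is the enzyme with which neutrophils and macrophages make superoxide. Its genes were examined in granulocyte-monocyte progenitors (GMP), the bone marrow cells from which neutrophils and monocytes arise. The 7 genes were taken by name and matched by Ensembl identifier: Cybb, Cyba, Ncf1, Ncf4, Rac1, Rac2 and Hvcn1. They are 7 of 21474 protein-coding genes in the tables. The series holds 1 group of 2 total RNA-seq libraries, replicate 1 and replicate 2. Each was made from 100 primary cells of male C57BL/6J mice aged 5 to 6 weeks, with no treatment named. Both carry 1 donor identifier and each its own biosample identifier, so whether separate animals gave the cells is not known from the labels. The isolation protocol is a linked document that was not used here. With 1 group there was no condition to compare, and no test was run. Every SD below measures only how far these 2 libraries lay apart, which may be technical.

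In resting phagocytes the enzyme lies in separate pieces. CYBB (gp91phox, also NOX2) and CYBA (p22phox) form a membrane flavocytochrome that carries electrons from NADPH across the membrane to oxygen. NCF1 (p47phox) and NCF4 (p40phox) wait in the cytosol as parts of a complex. On activation they move to the membrane and join a GTP-loaded RAC protein, while the proton channel HVCN1 offsets the charge that the electrons carry. Loss of CYBB, CYBA or a cytosolic subunit causes chronic granulomatous disease, in which phagocytes kill some microbes poorly. The full oxidative burst is a property of mature phagocytes, at later stages than the progenitors measured here.

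The libraries held 40509954 and 35675702 expected counts, which are estimated reads per gene. TPM, used below for levels, divides those reads by transcript length and scales each library to the same total. The 8 marker genes of GMP, among them Mpo and Elane, all reached 10 TPM in both libraries, against 26.1% of all protein-coding genes. Their summed level was 12329 TPM in replicate 1 and 13411 TPM in replicate 2. Markers of maturing neutrophils summed to 115 TPM in replicate 1 and 20.9 TPM in replicate 2. Of the 7 at 1 TPM or more on average, 6 were over 2-fold apart, against 11.8% of protein-coding genes at that level. Of these markers only Mmp8 was higher in replicate 2, with 72 counts in replicate 1 and 135 in replicate 2. In the same order, Ngp had 1310 and 23 counts, Camp 315 and 23, Lcn2 539 and 237, and Retnlg 163 and 1. Ltf had 281 and 1, and Mmp9 had 27 and 0. Cxcr2 differed by 1.10-fold. The 8 monocyte and macrophage markers summed to 49.6 and 52.1 TPM, mostly from Ccr2 at 37.4 and 39.8 TPM. C1qc had 0 counts, and C1qa and C1qb had 0 in replicate 1 and 14 and 15 in replicate 2. In bulk libraries such as these, more cells of a type and more RNA per cell cannot be told apart.

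All 7 oxidase genes were expressed, each at 10 TPM or more in both libraries. Among all protein-coding genes 26.1% did so. By gene TPM they fell into a higher set of 5, with means of 72.9 to 158 TPM, and a lower pair, Hvcn1 and Cybb, with means under 30 TPM. The catalytic subunit Cybb was the lowest of the 7. Neighbours in the order often lay close. Rac1 exceeded Rac2 by a log2 difference of 0.25 ± 0.29 (SD, n = 2) and Ncf1 exceeded Ncf4 by 0.15 ± 0.30, both within the spread. Rac2 lay above Cyba by 0.39 ± 0.36 and Cyba above Ncf1 by 0.34 ± 0.31, barely more than the spread. The steps from Ncf4 to Hvcn1 (1.40 ± 0.24) and from Hvcn1 to Cybb (0.42 ± 0.13) were larger than the spread. The place of Ncf4 depended on the transcripts counted. On full-length coding transcripts, defined below, its mean was 22.1 TPM, under that of Hvcn1 at 27.2 TPM.

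**Figure D1:**
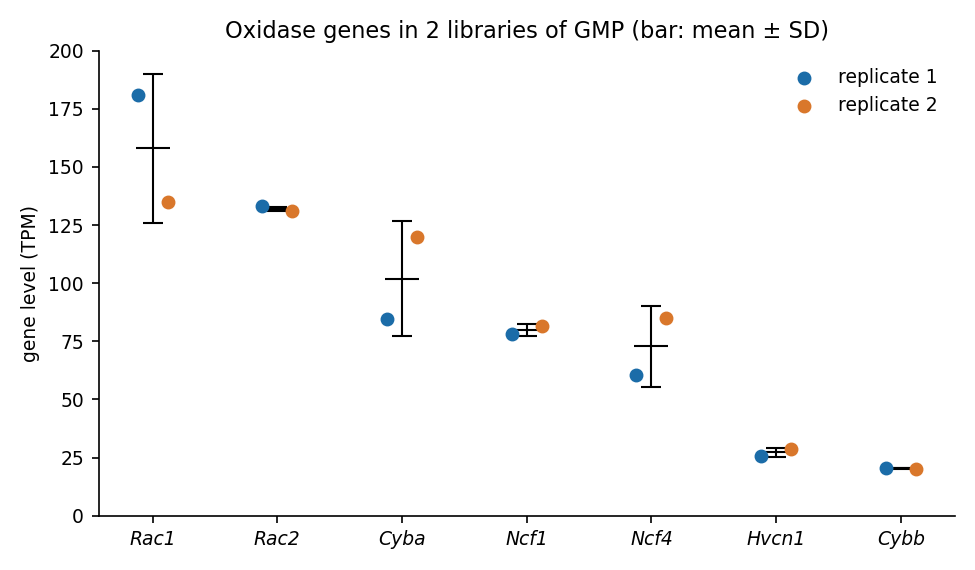
Level of each oxidase gene in TPM (linear axis) in replicate 1 and replicate 2, with the mean and SD as a horizontal bar and whiskers. Rac1, Rac2, Cyba, Ncf1 and Ncf4 lie above 60 TPM in both libraries, and Hvcn1 and Cybb lie below 30 TPM.

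Cybb, which encodes the heme-bearing and FAD-bearing electron channel of the enzyme, lies on chromosome X (9435252 to 9487771, minus strand, GRCm38). It stood at 20.4 TPM (1765 counts) in replicate 1 and 20.1 TPM (1938 counts) in replicate 2. That placed it at rank 3621 and rank 3817 among protein-coding genes. The gene levels of the libraries were all but equal, while the shares of its transcripts differed somewhat. Of the 28 transcripts of the 7 genes, 0 differed by 20 percentage points or more between the libraries. The full-length coding transcript Cybb-201 held 61.2% of the gene in replicate 1 (12.5 TPM) and 77.4% in replicate 2 (15.6 TPM), where full-length coding means annotated as protein-coding with both ends complete. Most of the rest lay on short models. Cybb-205, a partial coding transcript of 390 bases with its own first exon upstream, held 20.8% and 7.98%, from 28.9 and 9.84 counts, with overlapping deposited intervals of 2.03 to 6.23 and up to 3.96 TPM. Cybb-203, a retained-intron transcript, held 15.6% and 2.70%, and Cybb-202, another, held 2.42% and 11.9%. Because such models are short, few reads weigh heavily in TPM: Cybb-201 held 95.6% and 96.7% of the gene's counts.

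Cyba encodes p22phox, the partner that stabilises CYBB in the membrane and docks NCF1, and lies on chromosome 8 (122424776 to 122432930, minus strand). Its level was 84.8 TPM (1489 counts) in replicate 1 and 120 TPM (1888 counts) in replicate 2, and its mean was 102 ± 24.8 TPM (SD, n = 2). The TPM intervals deposited for the libraries, whose level is not stated, were 77.4 to 85.7 and 110 to 120 TPM and did not overlap. Such gene intervals lay apart for 4 of the 7 genes: Cyba, Ncf4, Rac1 and Hvcn1. The share over all genes was not computed. The table has 1 Cyba transcript, so no share could shift. Per length, Cyba lay above Cybb by 4.15-fold in replicate 1 and 5.96-fold in replicate 2, a log2 ratio of 2.31 ± 0.37. Against the full-length coding transcript of Cybb alone the excess was 6.78-fold and 7.71-fold, a log2 ratio of 2.85 ± 0.13. The protein subunits pair one to one, and these are RNA levels only.

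Ncf1 encodes the organizer p47phox, which is phosphorylated on activation and brings the cytosolic complex to CYBA. On chromosome 5 (134220053 to 134229625, minus strand), it stood at 78.0 TPM (5670 counts) in replicate 1 and 81.7 TPM (5120 counts) in replicate 2. Of its 7 transcripts in the table, the coding transcript Ncf1-202 held 90.5% and 83.2%. A second coding transcript, Ncf1-201, differs from it by an added 42 bases at the end of an internal exon, all within the coding sequence and equal to 14 codons. Ncf1-201 had 0 counts in replicate 1 and 59.5 in replicate 2, at most 1.07% of the gene. The added bases, at chr5:134221988-134222029, are shown in capitals with 20 transcript bases on each side, because they tell the near-absent coding form from the main one.
Ncf1-201: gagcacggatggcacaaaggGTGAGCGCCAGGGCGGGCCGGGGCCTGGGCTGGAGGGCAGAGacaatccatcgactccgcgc
Of the capitals, 81.0% are G or C. Ncf1-205, in which the 42 bases and the rest of that intron are kept in the transcript, held 4.88% and 6.83%, and retained-intron models 4.62% and 8.89%.

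Ncf4 encodes p40phox, the subunit that binds phosphatidylinositol 3-phosphate on phagosomes, and lies on chromosome 15 (78244801 to 78262580, plus strand). As a gene it stood at 60.6 TPM (1217 counts) in replicate 1 and 85.1 TPM (1346 counts) in replicate 2, with a mean of 72.9 ± 17.4 TPM (SD, n = 2). Most of that level did not lie on the transcript that encodes the protein. The full-length coding transcript Ncf4-201 was at 21.1 and 23.0 TPM, or 34.8% and 27.1% of the gene. Ncf4-206, a model of 540 bases annotated as a retained intron, was at 30.9 and 47.9 TPM, or 51.1% and 56.2%. A further retained-intron model, Ncf4-204, of 336 bases, held 10.3% and 15.3%. Together the 4 retained-intron transcripts held 65.2% and 72.9% of the TPM and 33.7% and 41.4% of the counts.

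Ncf4-206 has 2 exons. Its first begins inside the intron between exons 8 and 9 of Ncf4-201 and runs into exon 9, and its second is nearly the whole of exon 10, the last. Only 94 of its 540 bases are in no other transcript of the gene. Its first exon, at chr15:78260878-78261037, is shown because more of the gene's TPM was assigned to this model than to the coding one. Capitals mark the 94 bases that are intron in Ncf4-201, and the 66 lower-case bases are exon 9.
Ncf4-206: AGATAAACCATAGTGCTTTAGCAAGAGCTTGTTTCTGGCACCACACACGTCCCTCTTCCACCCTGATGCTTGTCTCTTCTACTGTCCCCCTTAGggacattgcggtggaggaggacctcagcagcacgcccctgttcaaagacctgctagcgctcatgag
The capitals end in AG, the usual last bases of an intron. How the reads were spread along the gene was not analysed here, so the assignment to Ncf4-206 rests on the authors' estimate. The deposited intervals for this transcript were 25.7 to 33.8 TPM in replicate 1 and 41.1 to 50.8 TPM in replicate 2, and for Ncf4-201 18.6 to 21.9 and 20.3 to 23.8 TPM.

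**Figure D2:**
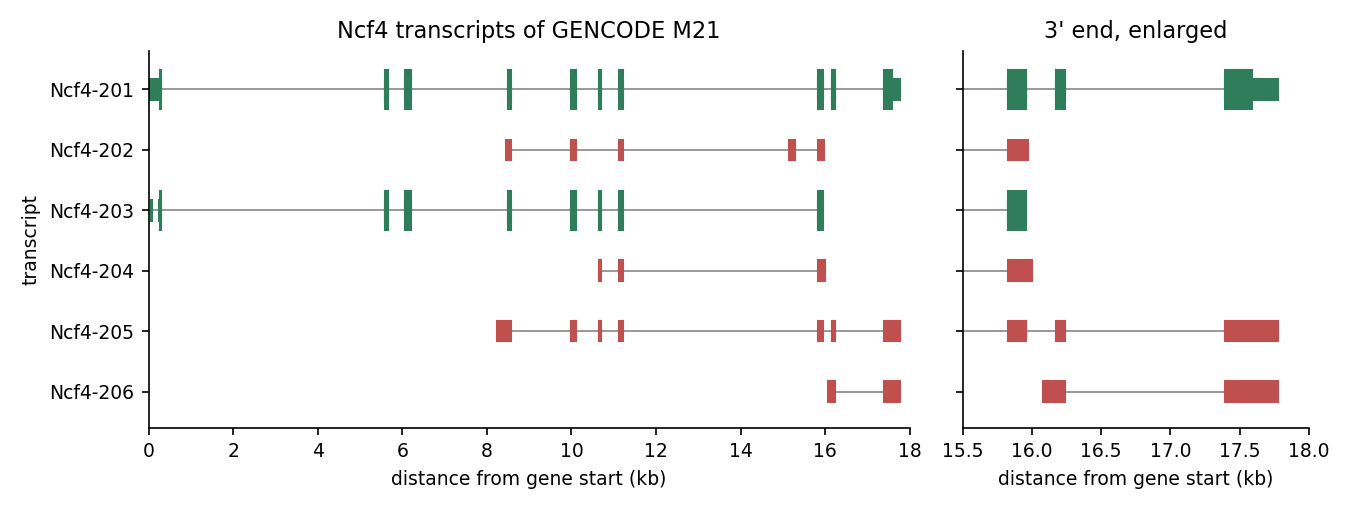
Exon map of the 6 Ncf4 transcripts of GENCODE M21, as distance from the gene start in kb, with the 3′ end enlarged on the right. Tall boxes are coding and low boxes non-coding sequence, green marks protein-coding and red retained-intron transcripts, and Ncf4-206 covers only the last 2 exons and 94 bases of the intron before them. Ncf4-203 and Ncf4-205 have other lengths in the deposited tables.

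Ncf1 and Ncf4, whose proteins share 1 cytosolic complex, were close as genes, at a log2 ratio of 0.37 in replicate 1 and -0.06 in replicate 2. Counted on full-length coding transcripts alone, Ncf1 lay above Ncf4 by 3.53-fold in replicate 1 and 3.23-fold in replicate 2, a log2 ratio of 1.75 ± 0.09 (SD, n = 2). This alternative was added after the transcript shares had been seen. It also moved Ncf4 below Hvcn1 in the order of the 7 genes, by a log2 difference of 0.30 ± 0.02. Low shares on coding transcripts are common in these tables. Of 4168 protein-coding genes with several transcripts, all matched, and at least 10 TPM in each library, 17.4% had under 50% on full-length coding transcripts in both libraries. Of the 5 oxidase genes with several transcripts 1 did, Ncf4. The median share over those 4168 genes was 79.6%, with quartiles of 53.2% and 96.3%.

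**Figure D3:**
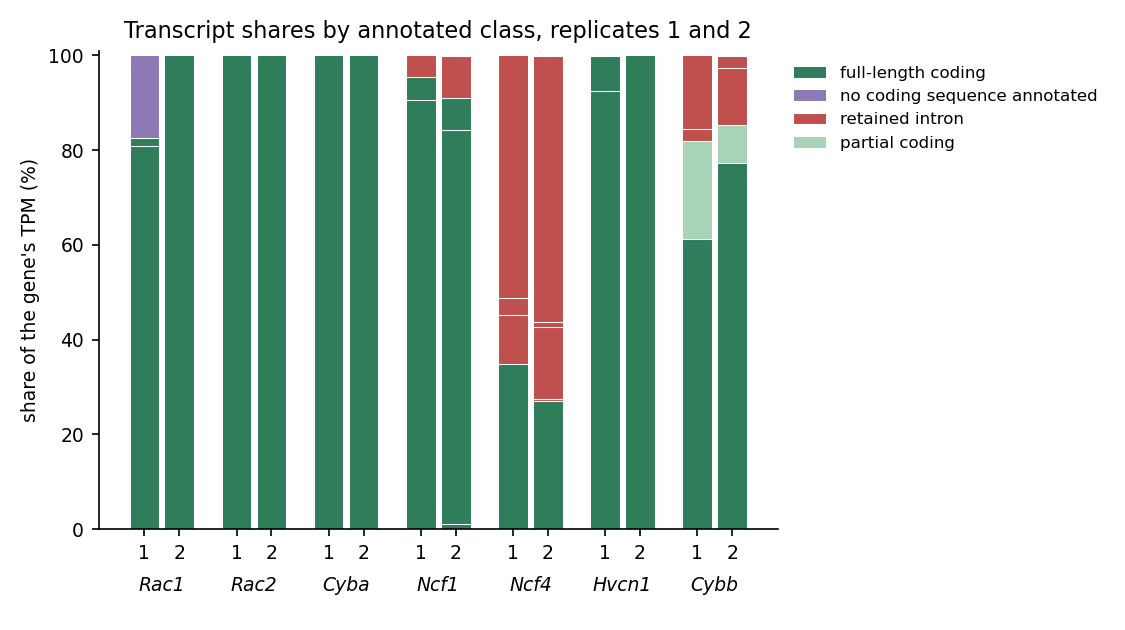
Share of each gene's TPM (percent, linear axis) on its transcripts in replicates 1 and 2, stacked and coloured by annotated class, 1 segment per transcript. Ncf4 is the gene of the 7 with most of its level on retained-intron models, and Rac1 has a segment with no annotated coding sequence in replicate 1 alone.

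**Figure D4:**
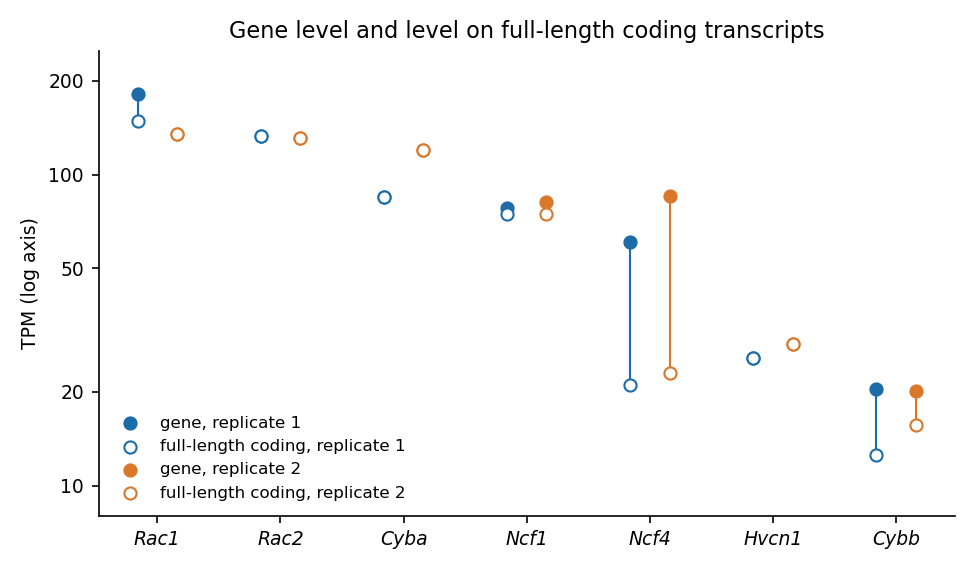
TPM on a log axis for each oxidase gene, as the whole gene (filled) and on full-length coding transcripts (open), per library. An open point alone means that both values coincide, as for Rac2, Cyba and Hvcn1. The widest gap is at Ncf4, from 60.6 to 21.1 TPM in replicate 1 and from 85.1 to 23.0 TPM in replicate 2.

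Rac2, the RAC protein largely restricted to blood cells, lies on chromosome 15 (78559167 to 78572783, minus strand), 297 kb beyond Ncf4. It stood at 133 TPM (11209 counts) in replicate 1 and 131 TPM (9914 counts) in replicate 2 on its only transcript in the table. As a ratio these were the closest values of the 7 genes. Rac1, the widely expressed paralogue, lies on chromosome 5 (143503634 to 143528036, minus strand). The gene stood at 181 TPM (9843 counts) in replicate 1 and 135 TPM (7661 counts) in replicate 2, with a mean of 158 ± 32.1 TPM (SD, n = 2). In replicate 2 the GTPases were level, and in replicate 1 Rac1 was 1.36-fold above Rac2. The log2 ratio of Rac2 to Rac1 was -0.25 ± 0.29.

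The excess of Rac1 in replicate 1 lay mainly on a short model. Rac1-204, a transcript of 585 bases with no annotated coding sequence, was at 31.7 TPM in replicate 1, from 395 counts, and had 0 counts in replicate 2. It was named after its values were seen. The deposited intervals, 23.1 to 37.0 TPM and up to 2.79 TPM, did not overlap. It starts at its own first exon and shares all other bases with the coding transcript Rac1-201, which was at 146 and 135 TPM. On full-length coding transcripts Rac1 differed between the libraries by 1.10-fold, against 1.34-fold for the gene, and lay above Rac2 by a log2 difference of 0.17 in replicate 1 and 0.04 in replicate 2.

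Rac1 has a second coding form, Rac1-202, that includes an extra exon of 57 bases, or 19 codons, and is known as Rac1b, a fast-cycling form described in epithelial tumours. It was at 3.15 TPM in replicate 1, from 200 counts, and was assigned 0 counts in replicate 2, in an estimated split of reads that Rac1 transcripts share. Its deposited intervals were 1.90 to 4.54 TPM in replicate 1 and up to 0.514 TPM in replicate 2, and it made up 1.74% of the gene in replicate 1. The exon, at chr5:143509597-143509653 on the minus strand, is in capitals below with 20 transcript bases on each side. It is shown because it is the only sequence that tells this form from the other full-length transcripts.
Rac1-202: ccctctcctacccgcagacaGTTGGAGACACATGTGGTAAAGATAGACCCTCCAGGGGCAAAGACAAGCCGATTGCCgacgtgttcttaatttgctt
Levels of Rac1 per length also depend on the annotation. Rac1-201 has 2315 bases in the deposited tables and 4159 in the later GENCODE M21, and the longer form was not used by the authors.

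Hvcn1, the voltage-gated proton channel, lies on chromosome 5 (122206804 to 122242297, plus strand). Its level was 25.7 TPM (1988 counts) in replicate 1 and 28.6 TPM (1975 counts) in replicate 2, at rank 2929 and rank 2710 among protein-coding genes. Its 2 full-length transcripts encode coding sequences of the same length, 807 bases, and differ at the 5′ end. Hvcn1-201 held 92.4% and 100%. Hvcn1-202 held 7.58% in replicate 1 and 0 counts in replicate 2, with overlapping deposited intervals that reached up to 5.57 and 2.28 TPM.

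Between the libraries, 0 of the 7 genes were over 2-fold apart, against 11.8% of the 10278 protein-coding genes at 1 TPM or more on average. With only 7 genes, a count of 0 is close to that share, which also includes genes at lower levels than these. At 1.5-fold the count was also 0 of 7, and the share of all genes at that limit was not computed. The largest differences were 1.41-fold for Cyba and 1.41-fold for Ncf4, both higher in replicate 2, and 1.34-fold for Rac1, higher in replicate 1. The median difference of the 7 was 1.11-fold, and over the 5595 protein-coding genes with at least 10 TPM in each library it was 1.16-fold. Of those genes 15.9% were further apart than Cyba. In the other 4 genes the libraries differed by 1.11-fold or less. Summed markers of maturing neutrophils were higher in replicate 1, while Cyba and Ncf4 were higher in replicate 2, and the part of such cells in either difference was not tested.

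Counts scaled to library size (CPM), which leave transcript shares aside, gave a partly different picture. The CPM ratio of replicate 2 to replicate 1 was 1.44 for Cyba (95% Clopper-Pearson interval 1.34 to 1.54), 1.26 for Ncf4 (1.16 to 1.36) and 1.25 for Cybb (1.17 to 1.33). It was 0.884 for Rac1 (0.858 to 0.911), 1.13 for Hvcn1 (1.06 to 1.20), 1.03 for Ncf1 (0.987 to 1.07) and 1.00 for Rac2 (0.977 to 1.03). The intervals cover counting error only. Cybb therefore differed in reads and not in gene TPM, with the shift of shares toward Cybb-201 in replicate 2 between them. On CPM, Ncf1 and Rac2 were the only genes of the 7 whose interval included 1. That depends on the scaling. With edgeR and with DESeq2 scaling the ratio was 0.948 for Rac2 and 0.968 for Ncf1, and no interval was computed for those ratios.

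In GENCODE M21, other genes overlap 4 of the 7 on the opposite strand. Whether the counting used strand is not stated in the sources at hand. Daglb shares 2309 bases of exon with Rac1 and was at 7.60 and 14.0 TPM. Rac1-201 has 4159 bases in M21 and 2315 in the deposited tables. How much of that overlap lies in sequence counted for Rac1 was therefore not determined. Tctn1 shares 1574 bases of exon with Hvcn1 and was at 4.73 and 3.52 TPM, and Gtf2ird2 shares 408 with Ncf1 and was at 0.600 and 3.03 TPM. Gm20388 spans all of Cyba but shares no exon base with it, at 11.4 and 3.67 TPM. The deposited posterior SD of the count was 0 for all 7 genes in both libraries, meaning that the estimate of the gene's count did not vary, which also held for 82.8% of the 5595 genes.

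Genes that assist the oxidase were expressed as well. The lists of partners were drawn up from textbook knowledge of the pathway, with earlier results of these data known. They are described by counts and levels, without a test. Of the assembly genes Cybc1, Rap1a and Rap1b, 3 of 3 reached 10 TPM in both libraries, against 26.1% of all protein-coding genes. Cybc1, the chaperone of the flavocytochrome, was at 24.8 and 33.9 TPM. The small GTPases Rap1b and Rap1a, the latter known to copurify with the flavocytochrome, were at 77.3 ± 0.389 and 33.9 ± 0.566 TPM (SD, n = 2).

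By contrast the other NADPH oxidases and their partners were at or near 0. None of the 9 reached 1 TPM, and Nox3, Nox4, Duox1, Duox2, Duoxa1 and Duoxa2 had 0 counts in both libraries. Such low levels are common: of all 21474 protein-coding genes, 10278 were at 1 TPM or more on average. The median over all of them was 0.550 TPM. By counting error alone, a count of 0 allows up to 3 counts, or 0.0741 CPM in replicate 1 and 0.0841 CPM in replicate 2. Each library came from 100 cells, and RNA lost before sequencing is not covered by that limit. Nox1 and its partners Noxa1 and Noxo1 had 0 counts in replicate 1 and 20, 23 and 36 in replicate 2. Each was under 1 TPM there.

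**Figure D5:**
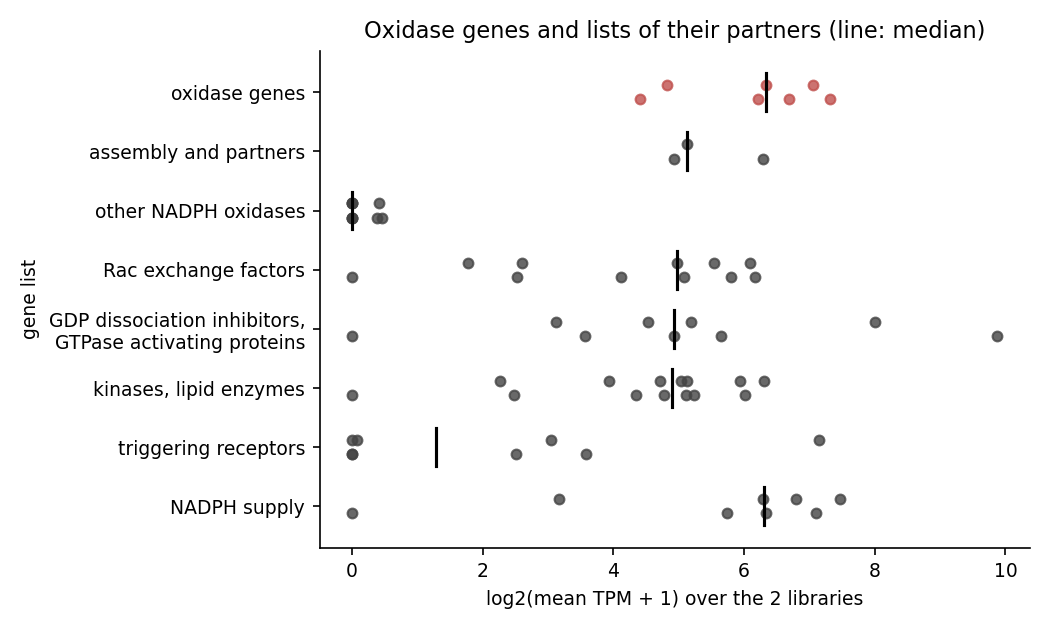
Level of each gene as log2(mean TPM + 1) over the 2 libraries, for the 7 oxidase genes (red) and 7 lists of partners (grey), with a line at each median. Other NADPH oxidases lie at or near 0, and most NADPH supply genes lie at levels like those of the oxidase genes.

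Regulators of RAC were present in number. Of 11 Rac exchange factors, which load RAC with GTP, 7 reached 10 TPM in both libraries, against 26.1% of all protein-coding genes. The highest were Dock10 at 71.1 ± 0.714 TPM, Vav1 at 67.1 ± 0.778, Arhgef6 at 54.9 ± 7.06 and Dock2 at 45.4 ± 4.18 (SD, n = 2). Prex2 had 0 counts in both. Of the 3 GDP dissociation inhibitors, which hold RAC in the cytosol, 2 were far higher. Arhgdib, the blood-cell form, stood at 940 ± 72.4 TPM and Arhgdia at 256 ± 14.0 TPM, while Arhgdig had 1 count in replicate 1 and 0 in replicate 2. Among the GTPase activating proteins, which switch RAC off, Arhgap15 was at 49.1 ± 1.70 TPM and Arhgap1 at 35.5 ± 5.30 TPM.

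Of the 14 kinases and lipid enzymes that act on the oxidase, 11 reached 10 TPM in both libraries, against 26.1% of all protein-coding genes. Prkcd, a protein kinase C known to phosphorylate NCF1, was at 77.8 ± 7.37 TPM (SD, n = 2). It was followed by Mapk14 at 63.3 ± 6.60, Akt1 at 60.0 ± 5.00 and Pik3cd at 36.6 ± 2.57 TPM. Prkcz had 0 counts in both. Of 8 receptors that trigger the burst, 1 reached 10 TPM in both libraries, against the same 26.1% of all protein-coding genes. That was Fcgr3, which is also on the list of GMP markers, at 140 ± 11.5 TPM. Next came Itgb2 at 13.8 and 8.21 TPM, Itgam at 8.58 and 5.95 and Tlr4 at 5.21 and 4.17 TPM in replicates 1 and 2. Fpr1 and Fpr2, receptors for formylated bacterial peptides, and Fcgr1 had 0 counts in both libraries.

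Genes that supply NADPH, the electron donor, stood near the oxidase genes in level. Of the 8 listed, 6 reached 10 TPM in both libraries, against 26.1% of all protein-coding genes. Tkt was at 176 ± 14.9 TPM, Taldo1 at 136 ± 16.9 and Pgd at 110 ± 5.45 (SD, n = 2). G6pdx, which catalyses the first step of the pentose phosphate pathway, was at 79.6 ± 1.44 TPM. Me1 had 0 counts in both. The median of the list, 78.4 TPM, compares with 0.550 TPM over all protein-coding genes and 27.2 TPM over those at 10 TPM or more in both libraries. Such genes serve every dividing cell, and no other cell type was measured here.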

How the data were processed

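The deposited text files name the genome mm10, annotation M4 and alignments to genome and transcriptome. Which aligner and quantifier were run, and whether counting used strand, is not given in the sources used here. The authors deposited expected counts, TPM, FPKM and, per transcript, the percent of its gene's TPM. The deposited tables also give TPM intervals of unstated level around a posterior mean, which were treated as a score. For 3 of the 7 genes the TPM lay outside its interval in at least 1 library.

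Symbols, biotypes, spans and transcript sequences came from GENCODE M21 (GRCm38), by identifier without version. Of 103639 Ensembl transcripts 101510 matched. Full-length coding means a protein-coding biotype with no tag for an incomplete end. Gene levels are means over 2 libraries with the SD, and ratios are log2 of TPM without a pseudocount. Counts were rounded for Clopper-Pearson intervals at 95%, and intervals cover counting error only, since no molecular identifiers are named. edgeR 4.0.16 and DESeq2 1.42.0 in R 4.3.3 gave scaling factors as alternatives, and no gene was tested. Other steps used Python 3.11.15, pandas 2.3.3, scipy 1.17.1 and matplotlib 3.10.9, and the fold step was tested on simulated data.

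The members, lists and thresholds were chosen with earlier results of these data known. All 7 members are named, with the 4 highest genes of each partner list and those with 0 counts in both libraries, and transcripts with 5% or more of their gene in both libraries. Other names, among them Nox1, Noxa1, Noxo1, C1qa, C1qb, Ngp, Camp, Lcn2, Retnlg, Ltf, Mmp9, Mmp8, Cxcr2, Arhgdig, Cybb-202, Cybb-203, Ncf1-201, Ncf1-205, Rac1-202, Rac1-204 and Hvcn1-202, were chosen after their values were seen. Genes of like pattern were not sought, because 2 libraries give no measure of likeness. RefSeq protein sequences were not used here. Some listed genes are not reported here.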

Additional observations from a re-analysis of the deposited data

How the results depend on the processing

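The count of 7 genes at 10 TPM in both libraries was also 7 at a minimum of 1 TPM, on FPKM, on rescaled TPM, on full-length coding transcripts and with either replicate left out. The count of 0 over 2-fold apart was also 0 with edgeR and DESeq2 scaling, rescaled TPM, pseudocount 1, full-length coding transcripts and a 1.5-fold limit. Ratios between genes depended on length. On CPM, not divided by length, the log2 ratio was -0.14 for Cyba to Cybb and 0.28 for Rac2 to Rac1, both reversed, and 2.07 for Ncf1 to Ncf4. On full-length coding transcripts, an alternative chosen after seeing the data, it was 2.85 for Cyba to Cybb and 1.75 for Ncf1 to Ncf4. With single replicates the ratio ran from 2.05 to 2.58 for Cyba to Cybb, from -0.06 without replicate 1 to 0.37 without replicate 2 for Ncf1 to Ncf4, and from -0.45 to -0.04 for Rac2 to Rac1. Leaving out Gm42418, Gm26917, Mir6236, Lars2 and mitochondrial genes multiplied every TPM by 1.90 in replicate 1 and 1.83 in replicate 2. No paired analysis was possible because there is 1 group. With 2 libraries, transcripts with few counts, such as Cybb-205, are the least certain values.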
